A study of Homo sapiens with 36 samples.

Results

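The comparison described here set untreated U373cc3 cells against untreated U373neo cells and asked which transcripts differed between a clone with and a clone without CC3 before any irradiation. CC3, also called TIP30, is the product of HTATIP2, a member of the short-chain dehydrogenase family known as a metastasis suppressor and as a binder of importins that slows nuclear transport. U373 is an established human glioblastoma line, itself CC3-negative. U373neo carries the empty vector as a stably transfected clone, and U373cc3 is a clone of the same line with constitutive CC3 from a transfected vector. Each state of CC3 was represented by 1 clone, so the biological replicates show how samples of the same clone vary but not how clones vary, and a difference between the clones cannot be told apart from a difference due to CC3. The members were chosen by the sample titles alone, 18 of the 36 arrays of the series, with 3 biological replicates per clone and 3 technical arrays per replicate. The other 18 arrays hold the same clones 2 h after UV. They serve for values set side by side, for a test of whether the clone difference changed after UV, and for an alternative fit. Their UV dose is given differently in the sample titles and in the paper's methods, so none is stated. RNA was labelled with Cy5 and read on Phalanx Human OneArray chips, whose values are fluorescence intensities per probe, and the mean of 3 technical arrays stands for a replicate throughout.

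As background, immediate early genes are transcription factors and signalling feedback proteins whose transcripts appear within minutes of a growth factor or stress signal, largely through MAP kinases acting on promoters that already carry bound factors. Their products include FOS and JUN, the subunits of the AP-1 factor, and the DUSP phosphatases that switch MAP kinases off again. Glioblastoma cells are known for strong receptor tyrosine kinase signalling, for secreted matrix proteins that go with invasion, and for mixed glial and neuronal gene programmes.

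The probe of HTATIP2 was blank on every array, so the RNA level of the transfected gene was not checked here and the clones are named by their labels. Markers of astrocytes and glioma could be checked only in part, since 6 of 20 had values. GFAP, S100B, NES, VIM and CD44 were blank, whereas SOX9, EGFR, GJA1, MSI1, CHI3L1 and SLC1A2 had values in both clones. The paper reports a very large rise of vimentin (VIM) RNA in U373cc3, which could not be read here. The largest rises and falls below are therefore those among probes with values. The 18 arrays shared 1 distribution, with a median intensity between 895 and 896. Correlations of log2 intensity were 0.981 to 0.997 between technical arrays of a replicate, 0.971 to 0.995 between arrays of different replicates of a clone and 0.952 to 0.977 between arrays of the 2 clones. The SD of log2 intensity between replicates, pooled over probes, was 0.19 in U373neo and 0.15 in U373cc3.

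Differences between the untreated clones were widespread and mostly small, with a minority of transcripts that moved far. Of 12300 probes with values on all untreated arrays, 4280 differed at an adjusted p under 0.05 by limma with Benjamini-Hochberg adjustment, which is 34.8% of them. U373cc3 was higher for 2212 probes, 51.7% of those that differed, and lower for 2068 (16.8% of all), and the median absolute log2 change of the differing probes was 0.49. At least 2-fold differences were seen for 408 probes (3.32%), 202 higher and 206 lower. Rises reached further than falls, since 36 probes were at least 4-fold higher and 13 at least 4-fold lower. With 1 probe for each gene, the brightest where there were several, 3017 of 8430 genes differed (35.8%), 1576 higher (18.7%) and 1441 lower (17.1%), around a median log2 change of 0.03. These 3 shares are the background against which each gene group below is read. The replicates of the clones did not overlap for 6082 probes, 49.4% of all, and for 4256 of the 4280 that passed the test. With the probes in 4 equal sets by intensity, from dimmest to brightest, at least 2-fold rises numbered 75, 78, 35 and 14 and falls 44, 71, 64 and 27. The dimmest set ended at an intensity of 302 and the brightest began at 2995. The number of arrays limits the precision, and the median SE of a log2 change was 0.11 in the dimmest set and 0.09 in the brightest. Each log2 change below is U373cc3 over U373neo and is given with its SE after ±, from limma with 3 replicates per clone.

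**Figure D1:**
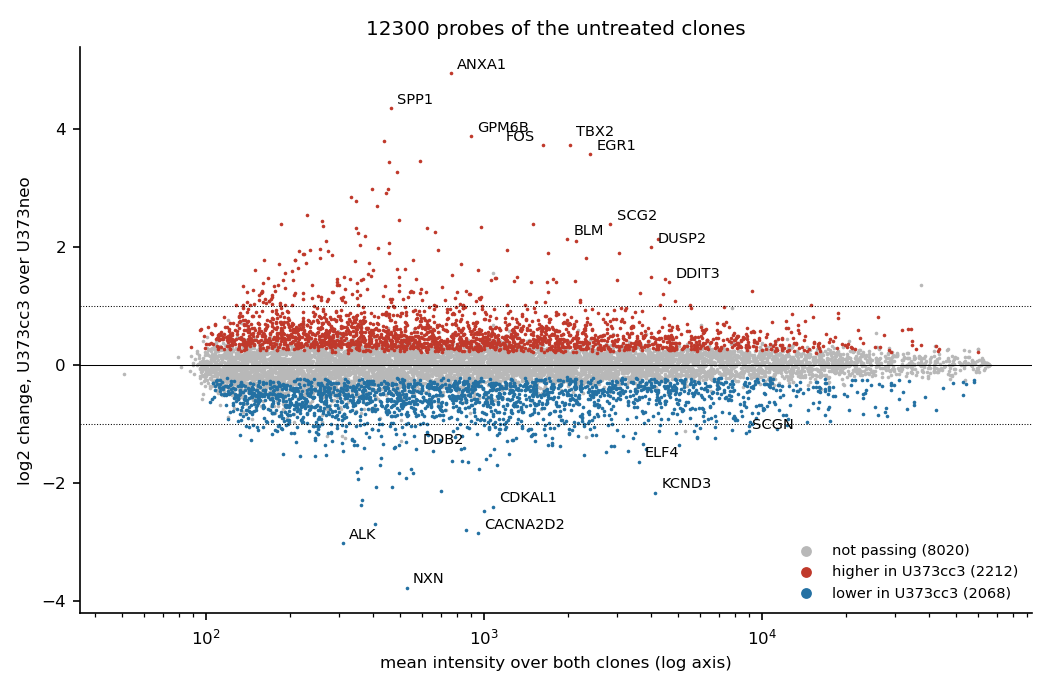
Each point is 1 of 12300 probes, with its mean intensity over both untreated clones on a log x axis and its log2 change, U373cc3 over U373neo, on the y axis. Red points are higher and blue points lower in U373cc3 at an adjusted p under 0.05, dotted lines mark 2-fold, and rises reach log2 4.96 at ANXA1 while falls end at -3.78 at NXN.

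Among the largest rises were genes for secreted and cell surface proteins. ANXA1, the phospholipid-binding annexin A1, had intensities of 110.2, 149 and 151 in U373neo and 3884, 4491 and 4298 in U373cc3. The lowest U373cc3 replicate lay far above every U373neo replicate, where the probe was near the dim end of the arrays. The difference was 31.1-fold higher (log2 change 4.96 ± 0.13, adjusted p = 1.17e-06). SPP1, the secreted matrix protein osteopontin, read 102, 103 and 101 in U373neo and 2198, 2085 and 2004 in U373cc3, 20.5-fold higher (log2 change 4.36 ± 0.07, adjusted p = 2.45e-07). The same pattern, near the dim end in U373neo and clearly present in U373cc3, held for the syndecan gene SDC2, which encodes a cell surface heparan sulphate proteoglycan (119, 115 and 118 in U373neo and 1554, 1657 and 1706 in U373cc3, 14-fold higher). SPOCK1, the secreted proteoglycan testican, read 155, 142 and 120.0 in U373neo and 1507, 1465 and 1539 in U373cc3 (10.9-fold higher). CDH19, a cadherin of Schwann cell precursors, read 128, 152 and 143 in U373neo and 1053, 1221 and 1087 in U373cc3 (7.96-fold higher), and CHODL, a membrane lectin, read 126, 130.3 and 115 in U373neo and 846, 885 and 941 in U373cc3 (7.21-fold higher). The largest rises and falls named here were taken only from genes whose replicates did not overlap between the clones. GPM6B, a membrane glycoprotein of glia and neurons, was already measurable in U373neo, with intensities of 258, 221 and 224 in U373neo and 3227, 3646 and 3518 in U373cc3, 14.8-fold higher (log2 change 3.89 ± 0.09, adjusted p = 5.39e-07).

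Regulators of transcription made up a further share of the largest rises. TBX2, a T-box repressor, read 577, 547 and 544 in U373neo and 7189, 7333 and 7772 in U373cc3, which is 13.4-fold higher (log2 change 3.74 ± 0.07, adjusted p = 2.90e-07). FOS read 453, 456 and 429.8 in U373neo and 5512, 5886 and 6392 in U373cc3, 13.3-fold higher (log2 change 3.73 ± 0.08, adjusted p = 5.39e-07), and EGR1, a zinc finger immediate early factor, read 657, 691 and 731 in U373neo and 6690.4, 9389 and 9027 in U373cc3, 12-fold higher (log2 change 3.58 ± 0.13, adjusted p = 5.12e-06). Among the U373cc3 samples, EGR1 was lowest in replicate 1. FOSB (7.98-fold), ARC (7.6-fold), an activity-induced cytoskeletal protein of neurons, and CEBPD (5.47-fold), a C/EBP factor, were also among the 25 largest rises. A further 11 were DNM3 (6.92-fold), a dynamin; LARP6 (5.84-fold), which binds collagen messages; RPL39L (5.5-fold); CALCB (5.26-fold), a calcitonin gene-related peptide; SCG2 (5.25-fold), a granule protein; ADGRL3 (5.25-fold), a latrophilin; GDF1 (5.13-fold); SORBS2 (5.08-fold); GLIPR2 (5.03-fold); BANK1 (5.0-fold); and STAC (4.77-fold). HSPA6, a heat-inducible chaperone at 4.71-fold, completed the 25. RPL39L and HSPA6 have near-identical relatives, and GDF1 shares a transcript with CERS1, so the source of these 3 signals is uncertain on probes of unknown sequence.

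The largest fall was that of NXN, which encodes nucleoredoxin, a thioredoxin-like partner of Dishevelled in Wnt signalling. Its intensities were 1859, 2032 and 1957 in U373neo and 132, 139.7 and 157 in U373cc3, 13.7-fold lower (log2 change -3.78 ± 0.09, adjusted p = 5.39e-07). ALK, a receptor tyrosine kinase, read 898, 826 and 932 in U373neo and 109, 115 and 102 in U373cc3, 8.14-fold lower (log2 change -3.03 ± 0.08, adjusted p = 1.20e-06). The lower values of both genes lie near the dim end of the arrays, so their folds depend on a level that is barely above the dimmest probes. CACNA2D2, an auxiliary subunit of voltage-gated calcium channels, read 2806, 2326 and 2547 in U373neo and 377, 311 and 379 in U373cc3, 7.21-fold lower (log2 change -2.85 ± 0.11, adjusted p = 6.23e-06). SCRN1, secernin, had the widest spread of these genes in U373neo (1249.5, 1089.6 and 769.6 in U373neo and 202, 136 and 141 in U373cc3), 6.47-fold lower (log2 change -2.69 ± 0.21, adjusted p = 1.25e-04). PALLD, the actin-binding palladin, read 2096, 2558 and 2442 in U373neo and 384, 454 and 429 in U373cc3 (5.59-fold lower), and CDKAL1, a tRNA-modifying enzyme, read 2170.2, 2629 and 2666 in U373neo and 493, 465 and 451 in U373cc3 (5.28-fold lower). KCND3, a potassium channel pore subunit, stood out by its brightness, with 9113, 8511 and 8518 in U373neo and 1798, 1924 and 2127 in U373cc3, 4.48-fold lower (log2 change -2.16 ± 0.09, adjusted p = 6.55e-06). Other large falls were those of CYP1B1 (5.2-fold), a cytochrome P450 induced by aryl hydrocarbons, C3orf18 (4.87-fold), ACTL8 (4.38-fold), TP53I11 (4.2-fold), the tetraspanin and metastasis suppressor CD82 (3.81-fold), the glycosyltransferase B3GLCT (3.77-fold), CPB1 (3.55-fold), the synaptic adhesion gene SLITRK2 (3.54-fold) and the homeobox gene BARHL1 (3.51-fold). CTNNBIP1, an inhibitor of beta-catenin, PIDD1, a death domain protein, ELF4, HOXD11, DZIP1, IGFLR1, DPY19L3, RASSF7 and SLC27A2 closed the 25 largest falls with 3.39-fold to 2.89-fold differences.

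**Figure D2:**
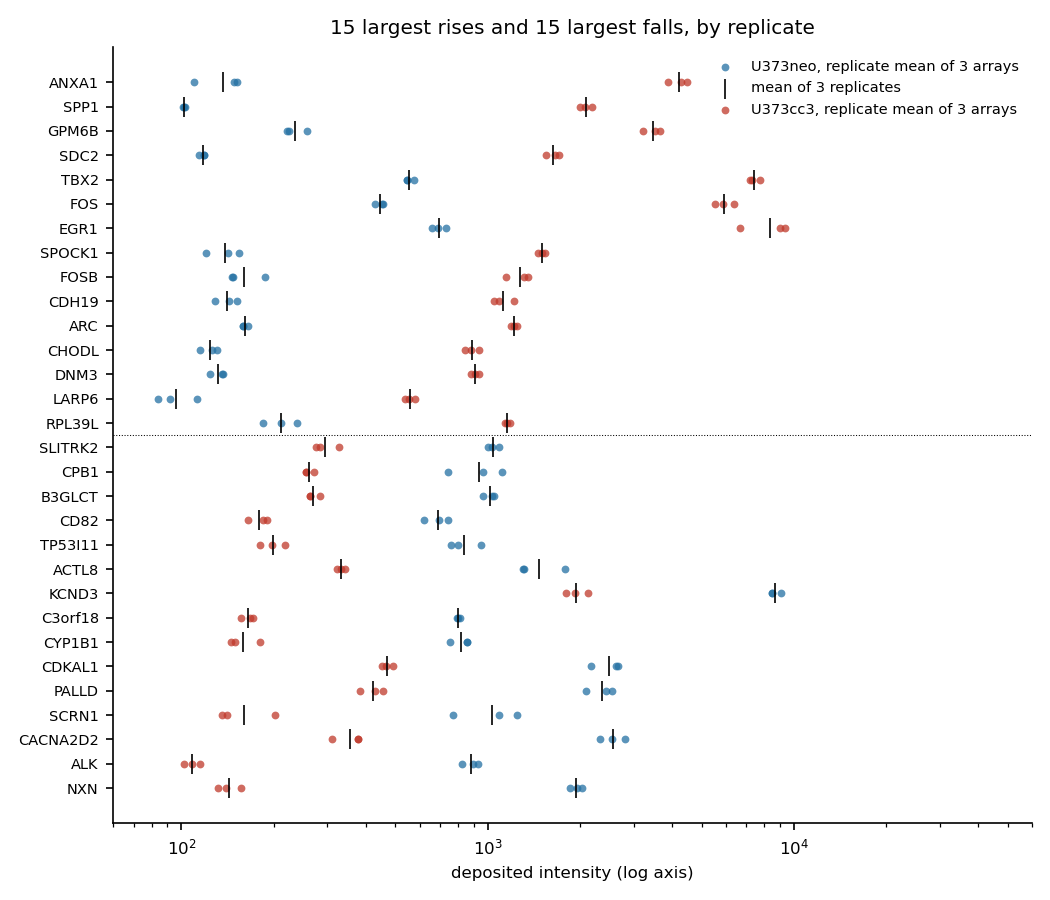
Points are the deposited intensities of the 3 U373neo (blue) and 3 U373cc3 (red) replicates on a log x axis, each the mean of 3 arrays, and black ticks are the means of the 3 replicates. The 15 largest rises stand above the dotted line and the 15 largest falls below it, taken only from genes whose replicates did not overlap. They run from 110.2, 149 and 151 in U373neo against 3884, 4491 and 4298 in U373cc3 for ANXA1 to 1859, 2032 and 1957 against 132, 139.7 and 157 for NXN.

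Immediate early genes rose as a group. Of 30 measured, 20 were higher, 3 were lower and 7 did not pass, where 18.7% of all genes were higher and 17.1% lower, with a median log2 change of 0.81 against 0.03 over all genes, and 12 were at least 2-fold higher. Besides FOS, EGR1, FOSB, ARC and CEBPD, those at least 2-fold higher were HBEGF, a membrane-anchored EGF receptor ligand (2.93-fold), ATF3 (2.65-fold), IER2 (2.65-fold), the kinases SGK1 (2.39-fold) and PLK3 (2.37-fold), the G protein regulator RGS2 (2.24-fold) and the nuclear receptor NR4A3 (2.15-fold). The partners and relatives of FOS moved less. JUN was 1.73-fold higher (log2 change 0.79 ± 0.09, adjusted p = 7.39e-04), whereas JUNB and JUND had log2 changes of 0.19 and 0.28 and FOSL2 of -0.10, none of which passed. SRF, the factor that binds CArG boxes in many immediate early promoters, did not pass, with a log2 change of -0.0047. NR4A1, NR4A2 and MYC did not pass either, at 0.08, -0.25 and 0.33. The 3 lower members were NPAS4 (-0.57), BTG2 (-0.43) and IER5 (-0.30). IER5 had an adjusted p of 0.051 by limma without U373cc3 replicate 2. Leaving out each replicate in turn gave 20 to 22 higher members.

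Genes that dampen MAP kinase signalling rose alongside them. Of 15 measured, 9 were higher, 1 was lower and 5 did not pass, with a median log2 change of 0.42. DUSP10, a phosphatase of the stress-activated kinases, read 245, 192 and 231 in U373neo and 777, 978 and 1051 in U373cc3, 4.19-fold higher (log2 change 2.07 ± 0.14, adjusted p = 6.19e-05). DUSP2 was brighter, at 2006, 2009 and 1969 in U373neo and 7163, 8382 and 8576 in U373cc3, 4.02-fold higher (log2 change 2.01 ± 0.09, adjusted p = 8.96e-06). DUSP1, the founding member of the family, read 2189.9, 2547 and 2382 in U373neo and 6269.9, 6885 and 6951 in U373cc3 and was 2.83-fold higher (log2 change 1.499 ± 0.09, adjusted p = 3.35e-05). None of the 3 phosphatases had overlapping replicates, which held for nearly all probes that passed. PHLDA1 (1.91-fold), DUSP3 (1.8-fold), the ETS factor ETV5 (1.74-fold) and DUSP4 (1.61-fold), which acts on ERK, rose by less. The Sprouty genes SPRY1 and SPRY2, inhibitors of receptor signalling, had log2 changes of 0.25 and 0.22 and did not pass, nor did the ERK-dependent cyclin gene CCND1 (0.0022). The lower member, DUSP8, was 1.38-fold lower (log2 change -0.46 ± 0.09, adjusted p = 0.00803).

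Promoter sequence was looked up for the genes measured, and 7040 of 8430 had an entry in the RefSeq table of promoters (GRCh38.p14), of which the 250 bases before the start were searched on both strands. The windows of 6 genes are shown, with the motifs in capitals, because EGR1 and SRF, and likewise DUSP1 and DUSP8, held the same motif without the same change, and because ATF3 and ATF5 carry the other motifs. A CArG box, the binding sequence of SRF, occurred at 2 places in the window of EGR1 and at 2 in that of SRF, whose log2 changes were 3.58 and -0.0047. No motif searched contains another. An EGR site, GCGTGGGCG or GCGGGGGCG, is also in capitals in the SRF window. The cyclic AMP response element TGACGTCA stood once in DUSP1 and at 2 places in DUSP8, with log2 changes of 1.499 and -0.46. A C/EBP-ATF element, TGATGNAAN, was in the window of ATF3 (log2 change 1.41), and an AP-1 site, TGANTCA, in that of ATF5 (1.77).
EGR1, GRCh38.p14 chr5:138465229-138465478, plus strand: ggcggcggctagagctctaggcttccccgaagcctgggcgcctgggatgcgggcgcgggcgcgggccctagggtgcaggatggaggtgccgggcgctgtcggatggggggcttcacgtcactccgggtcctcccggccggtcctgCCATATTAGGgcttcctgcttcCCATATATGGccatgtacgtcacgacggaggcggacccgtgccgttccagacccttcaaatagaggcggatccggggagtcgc
SRF, GRCh38.p14 chr6:43171019-43171268, plus strand: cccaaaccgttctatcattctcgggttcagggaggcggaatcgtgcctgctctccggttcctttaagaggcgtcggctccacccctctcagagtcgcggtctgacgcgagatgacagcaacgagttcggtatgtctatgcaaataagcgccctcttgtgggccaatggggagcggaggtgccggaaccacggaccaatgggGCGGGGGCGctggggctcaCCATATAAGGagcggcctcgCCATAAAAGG
DUSP1, GRCh38.p14 chr5:172771196-172771445, minus strand: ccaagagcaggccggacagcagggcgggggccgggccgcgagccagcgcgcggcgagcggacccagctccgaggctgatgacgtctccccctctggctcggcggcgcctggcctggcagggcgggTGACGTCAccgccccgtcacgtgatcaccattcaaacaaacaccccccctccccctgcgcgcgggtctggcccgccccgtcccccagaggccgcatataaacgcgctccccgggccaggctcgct
DUSP8, GRCh38.p14 chr11:1572272-1572521, minus strand: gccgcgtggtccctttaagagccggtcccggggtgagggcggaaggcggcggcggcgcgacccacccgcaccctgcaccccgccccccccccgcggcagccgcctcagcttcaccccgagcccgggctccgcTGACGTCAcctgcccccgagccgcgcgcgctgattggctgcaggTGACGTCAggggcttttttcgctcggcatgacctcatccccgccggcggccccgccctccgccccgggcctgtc
ATF3, GRCh38.p14 chr1:212565157-212565406, plus strand: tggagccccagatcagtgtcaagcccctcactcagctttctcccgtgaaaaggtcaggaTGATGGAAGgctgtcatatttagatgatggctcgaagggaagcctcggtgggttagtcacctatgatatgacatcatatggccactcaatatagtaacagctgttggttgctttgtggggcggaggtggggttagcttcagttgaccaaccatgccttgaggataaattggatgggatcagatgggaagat
ATF5, GRCh38.p14 chr19:49928656-49928905, plus strand: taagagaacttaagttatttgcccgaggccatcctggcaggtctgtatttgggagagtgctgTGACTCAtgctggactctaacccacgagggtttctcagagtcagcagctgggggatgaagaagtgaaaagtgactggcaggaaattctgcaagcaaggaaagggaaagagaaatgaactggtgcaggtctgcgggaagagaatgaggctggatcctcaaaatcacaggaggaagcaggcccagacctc
Over all 7040 windows an AP-1 site was found in 3.34%, against 8.26% of the windows of genes at least 2-fold higher (10 of 121) and 3.85% of those at least 2-fold lower (5 of 130). The cyclic AMP response element was found in 3.11%, 4.13% and 3.08% of these 3 sets, and the C/EBP-ATF element in 1.39%, 4.13% and 2.31%. CArG boxes were rare everywhere, at 1.04%, 2.48% and 1.54%, and EGR sites were at 8.71%, 7.44% and 12.3%. Among 22 immediate early genes with a window, 3 held an EGR site, 2 a CArG box, 2 a C/EBP-ATF element, 1 the cyclic AMP response element and none an AP-1 site. The windows of FOS and FOSB held none of the 5 motifs in the exact forms searched, and sequence beyond the 250 bases was not searched. The shares describe these windows only, and over all 27305 promoters of the table the AP-1 share was 6.60%. No test was made of them.

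The integrated stress response, in which ATF4 raises amino acid transport and synthesis genes, had 13 higher, 3 lower and 11 not passing of 27 measured genes, with a median log2 change of 0.33. ATF5, an ATF4-related factor, read 226, 181 and 152 in U373neo and 705, 589 and 594 in U373cc3, 3.41-fold higher (log2 change 1.77 ± 0.15, adjusted p = 1.66e-04). DDIT3, the factor CHOP, read 3493, 2475 and 2619.7 in U373neo and 6821, 7781 and 7954 in U373cc3, 2.65-fold higher (log2 change 1.41 ± 0.14, adjusted p = 3.38e-04), and PPP1R15A, the phosphatase subunit that reverses the response, was 1.85-fold higher. Clones did not overlap for these 3 genes, as for nearly all probes that passed. Other members rose by less, among them TRIB3 (1.69-fold), STC2 (1.68-fold), the amino acid transporter subunits SLC3A2 (1.62-fold) and SLC7A5 (1.54-fold), the tRNA synthetases WARS1 (1.49-fold) and AARS1 (1.4-fold) and asparagine synthetase ASNS (1.26-fold). ATF4 itself read 359.8, 369.9 and 397 in U373neo and 274, 298 and 297 in U373cc3, 1.3-fold lower (log2 change -0.37 ± 0.08, adjusted p = 0.00905), although it did not pass over single arrays (adjusted p = 0.12) or within range A of array serial numbers (adjusted p = 0.36). CEBPG (1.72-fold lower), a partner of ATF4, and the arginine transporter SLC7A1 (1.67-fold lower) were the other lower members. The endoplasmic reticulum chaperone HSPA5 had a log2 change of 0.0051 and XBP1 of 0.14, and neither passed.

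Metabolic lists shifted in smaller steps. Among 26 measured genes of glycolysis and hypoxia, 11 were higher and 2 lower, with a median log2 change of 0.24. HMOX1, haem oxygenase, read 357, 342 and 347 in U373neo and 1468, 1300.5 and 1289 in U373cc3, 3.88-fold higher (log2 change 1.95 ± 0.08, adjusted p = 6.91e-06), and PYGL, glycogen phosphorylase, read 552, 538 and 553 in U373neo and 1632, 1687 and 1688 in U373cc3, 3.05-fold higher (log2 change 1.61 ± 0.07, adjusted p = 6.91e-06). VEGFA (1.56-fold), ALDOA (1.5-fold), CA12 (1.4-fold) and PFKFB3 (1.34-fold) rose by less, and EGLN1 and GPI fell (1.46-fold and 1.42-fold). GPI was close to the upper limit of the scanner in U373neo, where a difference is understated. The count of higher members was 7 when any 1 replicate of U373cc3 was left out. Of 22 genes of cholesterol synthesis and uptake, 6 were higher and 2 lower, with a median log2 change of 0.21, and the largest rises were those of IDI1 (1.4-fold), SQLE (1.32-fold) and LPIN1 (1.31-fold). TM7SF2, a sterol reductase on chromosome 11, was 2.08-fold lower, and SC5D, also on chromosome 11, did not pass without U373neo replicate 2 or 3 or U373cc3 replicate 2 or 3 (adjusted p 0.078 to 0.12 by limma). Without U373cc3 replicate 3 the higher members numbered 3.

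Genes of the extracellular matrix moved in both directions. Of 46 measured, 18 were higher, 9 lower and 19 did not pass, and the median log2 change was -0.01. Beyond SDC2 and SPOCK1, MMP2, the gelatinase, read 269, 141 and 236 in U373neo and 719, 637 and 716 in U373cc3 (3.32-fold higher, adjusted p = 0.00104), FSTL1, a follistatin-like glycoprotein, was 3.28-fold higher, SPARCL1 3.13-fold, the microfibril gene MFAP4 2.83-fold and the laminin receptor subunit ITGA7 2.75-fold. On the lower side, ITGB1, the common beta subunit of many integrins, read 396, 396 and 347 in U373neo and 136, 207 and 139 in U373cc3, 2.41-fold lower (log2 change -1.27 ± 0.16, adjusted p = 0.00111). The proteoglycan lumican, LUM, was 2.14-fold lower with both of its probes past the threshold, the laminin chain LAMA5 1.81-fold lower and ITGA6 1.79-fold lower.

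Ligands and receptors divided likewise. Among 30 growth factors and cytokines, 9 were higher and 8 lower, and of the 24 outside chromosomes 11 and 13, 9 were higher and 3 lower. SPP1, GDF1, IL12A (3.7-fold) and HBEGF led the rises, followed by BMP4 (1.78-fold), NRG1 (1.68-fold) and FGF2 (1.4-fold), and the heparin-binding factor MDK (645, 537 and 492 in U373neo and 213, 221 and 219 in U373cc3, 2.55-fold lower), VEGFB (1.91-fold) and FGF9 (1.69-fold) led the falls. The lower members numbered 4 without U373neo replicate 2 or U373cc3 replicate 1 and 5 without U373neo replicate 3 or U373cc3 replicate 2 or 3. Of 16 receptor tyrosine kinases measured, 6 fell, 2 rose and 8 did not pass, with a median log2 change of -0.30, and leaving out each replicate in turn gave 4 to 7 lower members. After ALK, FGFR2 read 10816, 9899 and 8572 in U373neo and 4787, 4682 and 4595 in U373cc3, 2.07-fold lower (log2 change -1.05 ± 0.10, adjusted p = 2.51e-04), and FGFR1 read 336, 310.0 and 290.0 in U373neo and 156, 152 and 173 in U373cc3, 1.95-fold lower (log2 change -0.96 ± 0.09, adjusted p = 2.56e-04). The clones did not overlap for either FGF receptor, as for nearly all probes that passed. STYK1 (1.74-fold), EGFR (1.34-fold) and EPHB1 (1.26-fold) were the other lower kinases, TYRO3 was 1.6-fold higher, and MET and IGF1R had log2 changes of -0.0042 and -0.05 and did not pass. KIT, a dim probe, was 1.23-fold higher but did not pass without U373neo replicate 2 or 3 or U373cc3 replicate 1 or 2 (adjusted p 0.061 to 0.081 by limma).

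G protein-coupled receptors, 53 measured, had 13 higher and 16 lower members, but rises were larger than falls. The receptors of serotonin HTR7 (3.86-fold) and dopamine DRD2 (887, 854 and 895 in U373neo and 3031, 3405 and 3417 in U373cc3, 3.73-fold), the bradykinin receptor BDKRB1 (3.46-fold) and the GABA receptor subunit GABBR2 (2.18-fold) rose with ADGRL3, while no receptor of the list fell by 2-fold and the steepest was ADGRA3 (1.88-fold lower). Lower members numbered 8 without U373neo replicate 2, 9 without U373cc3 replicate 1 and 7 without U373cc3 replicate 2. Of 70 ion channel genes, 21 were higher and 6 lower, and the median log2 change was 0.13. The potassium channel modifier KCNG1 read 1286, 1244 and 1179 in U373neo and 4372, 4290.4 and 4475 in U373cc3, 3.54-fold higher (log2 change 1.83 ± 0.07, adjusted p = 6.28e-06), with its second probe 0.88 higher on the log2 scale. CACNA1H (2.56-fold), a T-type calcium channel, SCN3A (2.47-fold), a sodium channel, and the glutamate receptor subunits GRIK2 (1.87-fold) and GRIA2 (1.54-fold) were also higher. KCND3, the calcium release channel ITPR3 (861, 604 and 610.2 in U373neo and 306, 247 and 258 in U373cc3, 2.54-fold lower) and KCNK3 (1.52-fold lower) were the largest falls, and 12 channels were lower without U373neo replicate 1.

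Genes of neuronal adhesion and secretion changed strongly and in both directions. Of 51 genes of axon guidance and neuronal adhesion, 20 were lower and 14 higher. SLITRK3 (223, 204 and 199 in U373neo and 869, 728 and 877 in U373cc3, 3.95-fold higher) and its relative SLITRK2 (1006, 1034 and 1091 in U373neo and 276, 283 and 327 in U373cc3, 3.54-fold lower) are synaptic adhesion proteins of 1 family, with SLITRK1 and SLITRK5, both on chromosome 13, lower as well (2.01-fold and 1.57-fold). LGI2 (3.91-fold), LRRN3 (2.74-fold) and the Nogo receptor gene RTN4R (2.28-fold) were higher. BOC, a co-receptor of hedgehog signalling, was 2.86-fold lower, together with CLSTN2 (2.65-fold) and CELSR2 (2.17-fold). PLXNA2 had 1 probe lower and 1 higher, both past the threshold, and is counted by the brighter, lower probe. Synaptic vesicle and secretory granule genes tended upward, with 14 higher, 4 lower and 15 not passing of 33 and a median log2 change of 0.20. SCG2 read 1165, 1238 and 1321 in U373neo and 5772, 7380.3 and 6467 in U373cc3, 5.25-fold higher (log2 change 2.39 ± 0.11, adjusted p = 9.04e-06), and SNAP91, a clathrin adaptor of synapses, read 125, 104 and 102 in U373neo and 403, 411 and 458 in U373cc3 (3.85-fold higher). The calcium sensors of exocytosis did not move together, with SYT2 (2.75-fold) and SYT3 (1.94-fold) higher and SYT7 (1937, 1883 and 1844 in U373neo and 826, 781 and 708 in U373cc3, 2.45-fold) lower, and the calcium-binding secretagogin gene SCGN was also lower (14351, 12842 and 12093 in U373neo and 5934, 5691 and 6043 in U373cc3, 2.22-fold).

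Homeobox and T-box genes, which set cell identity in development, had 17 lower and 11 higher members of 68. After TBX2 the largest rises were NKX2-1 (468, 437 and 454 in U373neo and 1267, 1311 and 1333 in U373cc3, 2.88-fold), TBX4 (2.58-fold) and HOXC13 (2.08-fold). BARHL1, HOXD11, MSX1 (529, 642 and 635 in U373neo and 224, 232 and 222 in U373cc3, 2.65-fold lower), LHX2 (2.57-fold), PAX6 (2.35-fold), a regulator of neural progenitors, PBX3 (2.24-fold) and LHX8 (2.1-fold) were lower by at least 2-fold. Several members of the HOX clusters were lower by smaller factors, HOXD8 (1.48-fold), HOXD9 (1.3-fold), HOXA7 (1.37-fold), HOXA9 (1.33-fold) and HOXB7 (1.51-fold) among them, while HOXD3, HOXC10 and HOXC13 were higher. Without U373neo replicate 2, 7 members were higher.

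Cell type markers were read as whole lists. Both clones come from 1 glioblastoma line, so a marker is read here as a transcript and not as a count of cells of a type. In bulk RNA, a change in part of the cells and a change in all of them cannot be told apart. The neuronal list had 6 higher and 0 lower of 14 measured members, and 8 did not pass. Its summed intensity was 63840 to 64660 in the U373neo replicates and 79884 to 81968 in those of U373cc3. SCG2, counted also in the secretory granule list, was part of this sum, with mean intensities of 1241 in U373neo and 6540 in U373cc3. SCG2 and ELAVL3 (1.9-fold) rose most, MAP2 (1.35-fold) and SYP (1.33-fold) rose a little, and the light neurofilament gene NEFL, GAP43 and SNAP25 had log2 changes of 0.20, 0.19 and -0.08, which did not pass, while DCX, NEFM, RBFOX3 and ELAVL4 were blank. TUBB3, counted here by its brighter probe (1.31-fold higher), had a dimmer probe that was lower. The astrocyte and glioma list had 4 lower (MSI1 2.03-fold, SLC1A2 1.62-fold, CHI3L1 1.42-fold, EGFR 1.34-fold) and 1 higher (SOX9 1.31-fold) of 6, with sums of 5783 to 6195 in U373neo and 3918 to 4742 in U373cc3. Without U373cc3 replicate 2, 2 of its members were lower. CHI3L1 did not pass without U373neo replicate 2, U373cc3 replicate 1 or U373cc3 replicate 2 (adjusted p 0.058 to 0.063 by limma). Of the oligodendrocyte and Schwann cell list 5 of 15 had values, with CDH19 and GPM6B higher and SOX10, NGFR and CNP not passing (-0.08, 0.04 and 0.53), while MBP and ERBB3 were blank. Its sums were 9007 to 12387 and 15359 to 16078. Of the melanocyte list 3 of 10 had values, TYRP1 (2.02-fold higher), MITF (1.29-fold higher, not passing when any replicate other than U373cc3 replicate 3 was left out) and SOX10, and MLANA, PMEL, TYR and DCT were blank. Fibroblast markers were lower for LUM, FAP (1.53-fold) and TWIST1 (1.43-fold), with COL1A1 and S100A4 not passing, in sums of 8709 to 8890 and 6081 to 6355. All 4 leukocyte markers with values did not pass (sums of 1318 to 1816 and 1265 to 1508), the endothelial list had CDH5 alone (1.27-fold higher, not passing without U373neo replicate 2 or 3 or U373cc3 replicate 1 or 3), and no epithelial marker had values. How these changes were spread over the cells of a clone, and whether other cells were present in the cultures, was not tested.

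Mitosis genes were lower as a group. Of 50 measured, 18 fell, 3 rose and 29 did not pass, where 17.1% of all genes were lower, with a median log2 change of -0.20, and 16 of the 18 lie outside chromosomes 11 and 13. CKAP2, a spindle protein, read 4774, 3609.8 and 4931 in U373neo and 1890.1, 2257 and 2001 in U373cc3, 2.15-fold lower (log2 change -1.11 ± 0.13, adjusted p = 8.45e-04). CENPA, the histone variant of centromeres, read 15412, 16199 and 16300.1 in U373neo and 9002, 8945 and 8730.5 in U373cc3, 1.8-fold lower (log2 change -0.84 ± 0.07, adjusted p = 1.47e-04), and its second probe was lower too (-0.39 on the log2 scale). The replicates were separate for both, as for nearly all probes that passed. Of the lower genes named here, CKAP2 lies on chromosome 13 and KIF18A on chromosome 11. KIF18A (1.79-fold), SPC25 (1.67-fold), AURKB (1.58-fold), the mitotic cyclin CCNB1 (1.44-fold), MKI67 (1.42-fold) and AURKA (1.38-fold) fell by smaller factors, and the 3 higher genes, CENPO, CENPQ and CENPL, all belong to the centromere and rose by 1.29-fold, 1.28-fold and 1.22-fold. CENPL did not pass without U373neo replicate 2 or 3 or U373cc3 replicate 1 or 2 (adjusted p 0.067 to 0.11 by limma). Replication factors were mostly level, with 37 of 49 not passing, 9 lower and 3 higher. RRM1 (37859, 40027 and 36290.1 in U373neo and 22333, 19381 and 20977 in U373cc3, 1.82-fold lower), a subunit of ribonucleotide reductase, POLA2 (1.78-fold) and FEN1 (1.76-fold) were the largest falls, all on chromosome 11.

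DNA repair genes had 12 lower, 4 higher and 49 not passing of 65, and 8 of the 12 lower genes lie on chromosomes 11 or 13, so that 4 of 56 were lower and 4 higher elsewhere. DDB2, the damage sensor of nucleotide excision repair, read 910.5, 937 and 943 in U373neo and 354, 376 and 318 in U373cc3, 2.67-fold lower (log2 change -1.42 ± 0.08, adjusted p = 3.58e-05). Its partner DDB1 (1.65-fold), the cullin CUL4A (1.36-fold) and the endonuclease ERCC5 (1.73-fold) fell by less, and the Fanconi gene FANCF was 2.28-fold lower (log2 change -1.19 ± 0.14, adjusted p = 7.24e-04), with its second probe also lower (-0.94 on the log2 scale). BLM, the Bloom syndrome helicase, went the other way, reading 928, 1003 and 918 in U373neo and 3771, 4414 and 4368 in U373cc3, 4.4-fold higher (log2 change 2.14 ± 0.09, adjusted p = 6.91e-06). The next largest rise was that of MLH3 (1.63-fold). ERCC3 was 1.3-fold higher but passed only without U373neo replicate 1 among the 6 omissions. Lower members numbered 7 without U373cc3 replicate 2 or 3, and higher members 2 without U373neo replicate 2 or any U373cc3 replicate.

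Lists that relate to CC3 by family or by binding partner showed few large changes. Of 51 importins, exportins and nucleoporins, 40 did not pass, 9 were lower and 2 higher, and of 45 outside chromosomes 11 and 13 3 were lower. Only 1 was higher without U373neo replicate 2 or 3 or U373cc3 replicate 1 or 3. IPO7 (2797, 3123 and 3451 in U373neo and 1479.6, 1712 and 1657 in U373cc3, 1.93-fold lower), KPNA3 (1.88-fold), IPO5 (1.82-fold), XPO4 (1.73-fold), NUP98 (1.65-fold) and NUP160 (1.51-fold), all on those 2 chromosomes, were the largest falls. Among 37 short-chain dehydrogenases and aldo-keto reductases, the first of which is the family of CC3, 10 were higher and 5 lower. DHRS2 (1017, 1047 and 1119.7 in U373neo and 2514, 2937 and 3375 in U373cc3, 2.75-fold), HSD17B6 (1.62-fold) and DHRS4 (1.53-fold) rose most, and HSD3B7 (2.05-fold) and QDPR (1.65-fold), the dihydropteridine reductase, fell most. Higher members numbered 6 without U373neo replicate 2 or U373cc3 replicate 3, and lower members 3 without U373neo replicate 2 or U373cc3 replicate 2 or 3.

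Apoptosis genes and p53 targets were evenly divided, with 9 higher, 9 lower and 11 not passing of 29, and without chromosomes 11 and 13 with 9 higher and 4 lower of 24. The death receptor TNFRSF21 (2.38-fold), GADD45A (3050.4, 4511 and 4072 in U373neo and 6679, 8680.2 and 8021 in U373cc3, 2.02-fold) and the BH3-only gene HRK (1.93-fold) rose most. TP53I11, PIDD1 and TP53INP1 (4599, 4741 and 4369.8 in U373neo and 1611, 1628 and 1684 in U373cc3, 2.78-fold lower) fell most, followed by the death receptor TNFRSF10A (1.8-fold), BAD (1.77-fold) and CASP6 (1.74-fold). CDKN1A, which encodes the kinase inhibitor p21, read 2728, 3328 and 3169 in U373neo and 4593, 3863 and 3755 in U373cc3 and was 1.32-fold higher (log2 change 0.40 ± 0.11, adjusted p = 0.0278), but did not pass without U373neo replicate 1 or 3 or U373cc3 replicate 1 or 2 (adjusted p 0.053 to 0.077) or by the methods' t-test. Redox genes had 10 lower and 6 higher of 37, and outside chromosomes 11 and 13, 7 lower and 6 higher of 34. After NXN, PRDX5 (1.91-fold), SOD3 (1.81-fold) and catalase, CAT (1.79-fold), fell most, HMOX1 was the only rise of 2-fold or more, and TXN, TXNRD1 and SOD1 had log2 changes of 0.16, 0.04 and 0.02. Higher redox genes numbered 2 or 3 when any replicate other than U373neo replicate 1 was left out, and lower ones 6 without U373neo replicate 2 or 3. Of 21 genes of the interferon response and antigen presentation, 7 were higher, among them BTN3A3 (2.45-fold), MR1 (2.37-fold), ISG15 (2.29-fold) and IFI6 (2.01-fold), and 4 lower, led by the antiviral ZC3HAV1 (2.28-fold). Those lower numbered 1 or 2 when any replicate other than U373neo replicate 1 was left out. In the Toll-like receptor pathway, 5 of 19 were lower, TNIP2 (2.11-fold), TRAF6 (1.69-fold), RELA (1.49-fold), TOLLIP (1.36-fold) and IKBKB (1.26-fold), and TLR9 and TAB3 were higher (1.38-fold and 1.33-fold). Of its 16 genes outside chromosomes 11 and 13, 2 were lower and 2 higher, with a median log2 change of 0.08. Cadherins had 5 higher, led by CDH19 and CDH11 (2.23-fold), and 1 lower of 13 (2 without U373neo replicate 1). Imprinted genes had 2 higher and 2 lower of 11 and cancer-testis genes 2 higher of 5, and these small counts fell to 1 without some of the replicates of either clone.

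**Figure D3:**
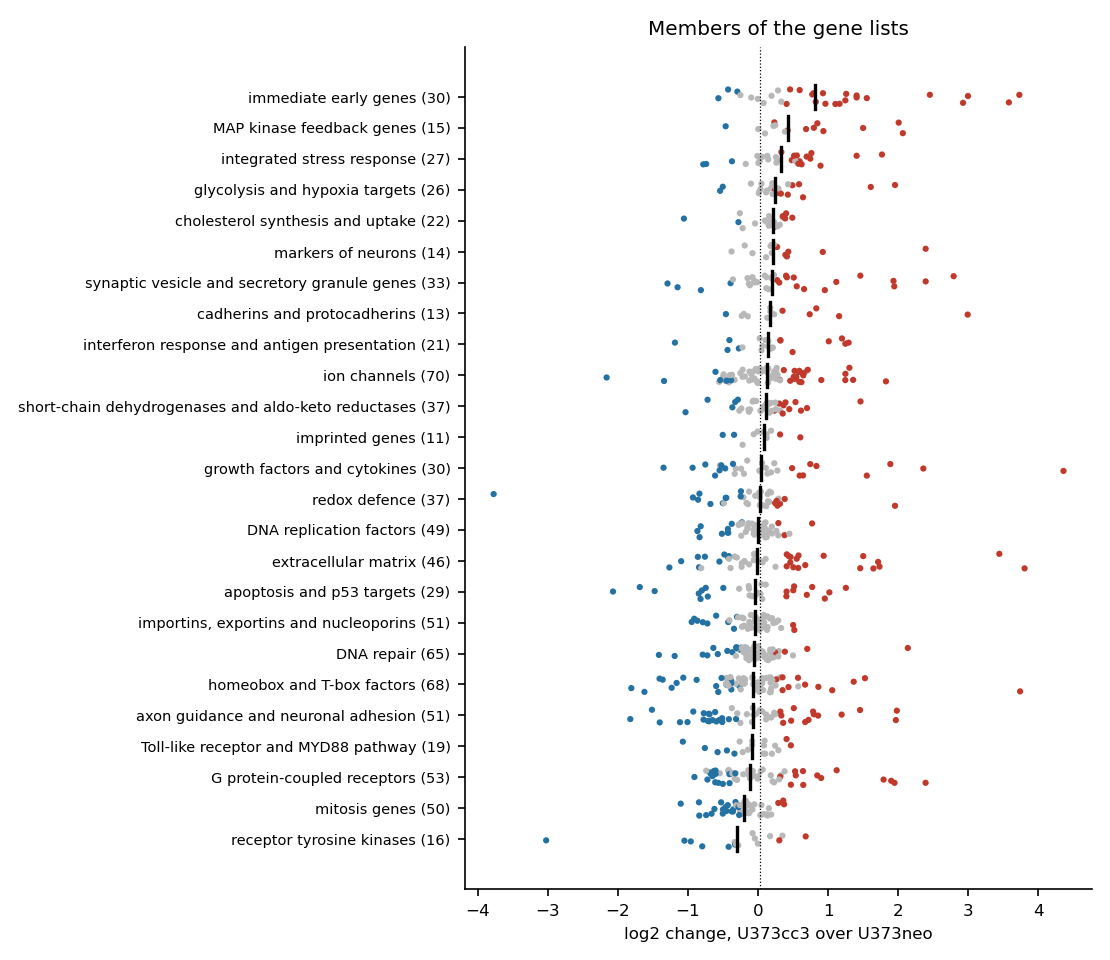
Each point is a measured gene of a list with at least 10 members, its log2 change, U373cc3 over U373neo, on the x axis, red where higher, blue where lower and grey where it did not pass, and the number of measured genes stands in parentheses. Black bars are list medians, from 0.81 for immediate early genes to -0.30 for receptor tyrosine kinases, and the dotted line is the median of all 8430 genes at 0.03.

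Where a gene lies was related to its difference. On chromosome 13, 119 of 136 measured genes were lower and 3 higher, with a median log2 change of -0.75, and on chromosome 11, 330 of 497 were lower and 21 higher, with a median of -0.47. Over the other 21 chromosomes the share lower ran from 7.54% to 25.2%, the share higher from 13.7% to 24.5% and the median from -0.06 to 0.10. Without chromosomes 11 and 13, 1552 of 7797 genes were higher and 992 lower. These counts are descriptions, with no test, and the genes of a chromosome share the same 6 replicates.

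On chromosomes 19, 6 and 4, part of the lower genes were gathered in runs of neighbours (70 of 105, 26 of 60 and 32 of 73). Most lower genes outside chromosomes 11 and 13 lay in no run. A run was taken as 15 or more measured genes over which the median of 21 neighbours stayed beyond 0.25 on the log2 scale, with up to 5 genes between joined runs, a rule set after the values were seen, so the values describe the runs and test nothing. On chromosome 19, 91 of the 96 genes from URI1 to EXOSC5 had a negative change. Of them 70 were lower, 1 was higher and the median was -0.56, against 0.09 over the 438 other genes of that chromosome, of which 35 were lower and 103 higher. IGFLR1 (1691, 1813 and 1771 in U373neo and 616, 536 and 604 in U373cc3, 3.01-fold lower), DPY19L3 (725, 786 and 699 in U373neo and 239, 256 and 244 in U373cc3, 2.99-fold lower), SHKBP1 (2.87-fold), the polymerase subunit POLR2I (2.04-fold) and CEBPG lie within it, and the exception was ZFP36, an immediate early RNA-binding protein (1.9-fold higher). Chromosome 6 had a run of 36 genes from FAM50B to NRSN1 with 26 lower, 1 higher and a median of -0.43, holding CDKAL1, GCNT2 (2.88-fold), E2F3 (1.74-fold) and JARID2 (1.73-fold), against a median of 0.07 over the rest of the chromosome. Chromosome 4 had 57 genes from TNIP2 to WDR19 with 32 lower, 5 higher and a median of -0.35, with CRMP1 (2.74-fold), MSX1, ADD1 (2.36-fold) and HTT (1.71-fold) lower and LGI2 and KLHL5 (3.29-fold) higher. The chromosome 11 genes formed a run of 406 from PIDD1 to ZW10 (285 lower, 16 higher, median -0.51) and a run of 16 from STT3A to PRDM10 (11 lower, median -0.46), and those of chromosome 13 a run of 116 from MICU2 to TUBGCP3 (103 lower, 3 higher, median -0.76). CALCB, DRD2 and SLC3A2 were among the 16 higher genes of the long run on chromosome 11. SLITRK1, KPNA3, IPO5, B3GLCT and DZIP1 are members of the run on chromosome 13, and DDB2, CD82 and TP53I11 of the long run on 11. Runs of higher genes were shorter. Of 19 genes at the end of chromosome 19, from ZNF582 to ZNF544, 14 were higher and 1, ZNF582 (1.69-fold), lower, with a median of 0.64. Those named ZNF583, ZNF256, ZNF211, ZNF274 and ZNF530 were 2.18-fold, 2.18-fold, 2.09-fold, 1.99-fold and 1.97-fold higher. On the X chromosome, 9 of 19 genes from RPA4 to TCEAL4 were higher, with a median of 0.33, the relatives GPRASP1 (1.67-fold), GPRASP2 (1.89-fold), ARMCX3 (1.56-fold) and ARMCX6 (1.67-fold) among them, and 9 of 15 from TIMM17B to CLCN5, with a median of 0.26. In all, the 9 runs held 780 of 8430 genes and 529 of the 1441 lower genes, 36.7% of them. Most of these 529 lay in the long run on chromosome 11 (285) and the run on chromosome 13 (103).

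The medians of 4 of these runs were nearly the same in ranges A, B and C of array serial numbers: -0.58, -0.59 and -0.60 for the run on chromosome 19, -0.48, -0.48 and -0.44 for that on chromosome 6, -0.77, -0.76 and -0.74 for that on chromosome 13 and -0.47, -0.51 and -0.52 for the long run on chromosome 11. On the UV arrays, which are other samples of the same clones, the medians of these 4 were -0.63, -0.48, -0.74 and -0.50. Other runs varied more. The run on chromosome 4 had -0.42, -0.41 and -0.37 in the 3 ranges but -0.22 on the UV arrays, where 24 of 54 genes were lower. The short run on chromosome 11 had -0.46, -0.61 and -0.38 and, on the UV arrays, -0.39. On the X chromosome, the run from RPA4 to TCEAL4 had 0.24, 0.38 and 0.32 and 0.15 on the UV arrays, where 4 of 19 genes were higher, and that from TIMM17B to CLCN5 had 0.28, 0.32 and 0.15 and 0.21 on the UV arrays. The run of zinc finger genes had a median of 0.61, 0.89 and 0.61 in the 3 ranges and 0.39 on the UV arrays over the 14 of its 19 genes with values there.

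**Figure D4:**
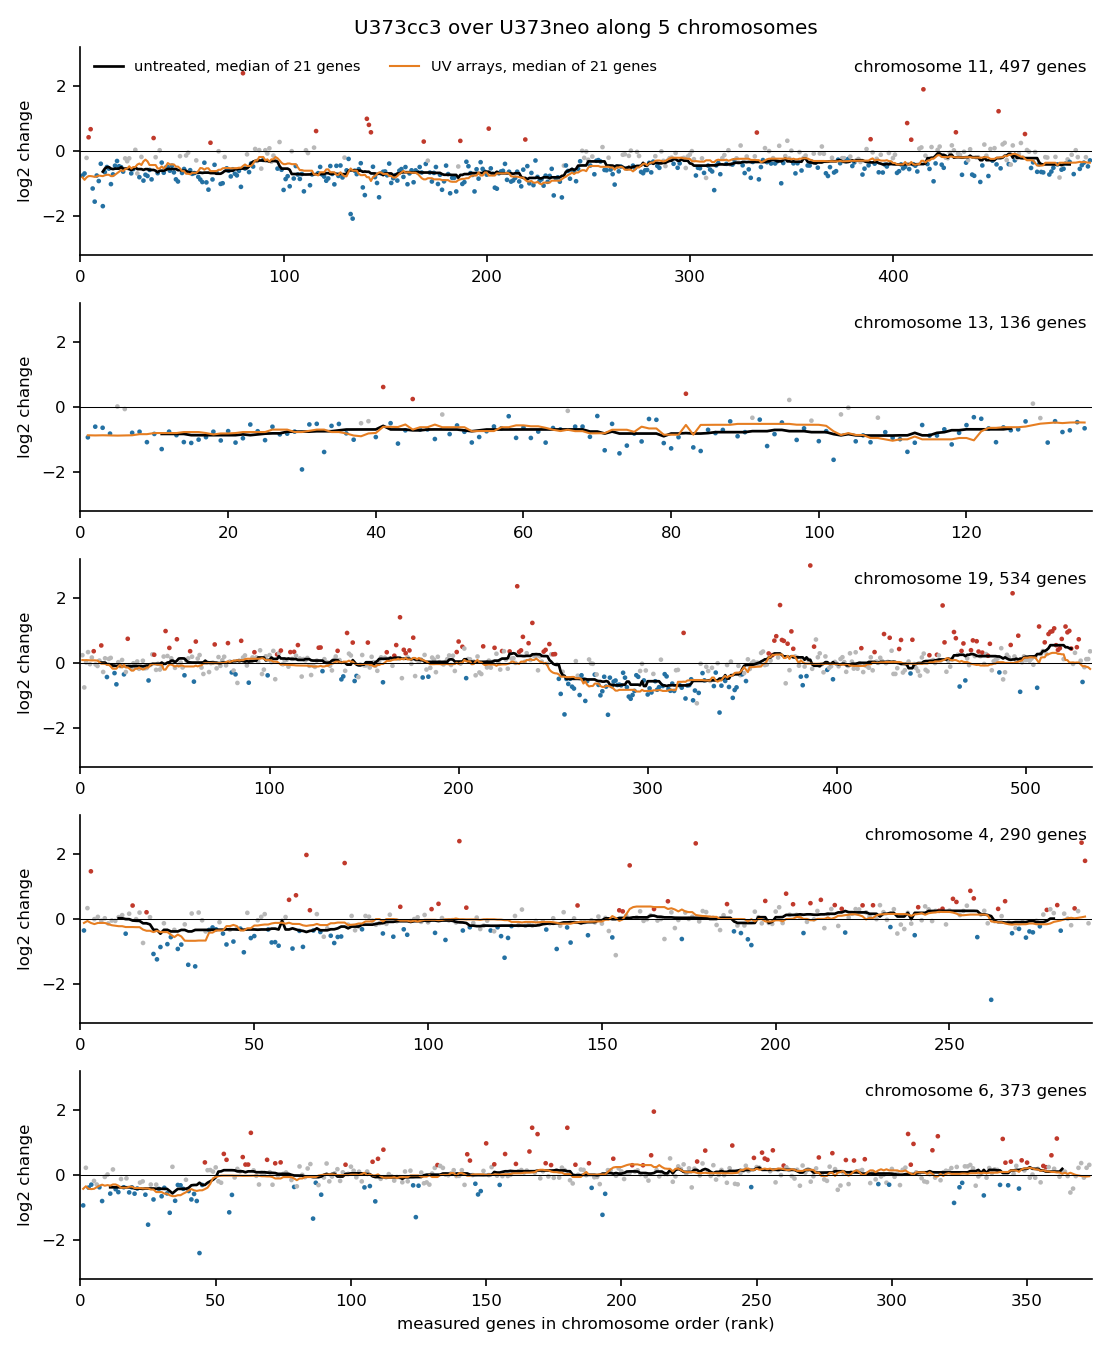
For 5 chromosomes, points are the log2 changes, U373cc3 over U373neo, of measured genes in chromosome order on the x axis (rank, not distance), red where higher, blue where lower and grey where not passing in untreated cells. Black lines are medians over 21 neighbouring genes on the untreated arrays and orange lines the same on the UV arrays, and both lie below 0 along chromosomes 11 and 13, over 96 genes of chromosome 19 and over the first genes of chromosomes 4 and 6.

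Values for 698 probes were present on the untreated arrays and blank on the UV arrays, so their differences can be seen only here. They were dim, with a median intensity of 148 against 996 for the other probes, and 608 lay below 300. Of them 262 differed, 191 higher and 71 lower, or 33 higher and 7 lower by at least 2-fold. Rises made up 72.9% of these differing probes, against 50.3% of those with values on both sets. The rule that left probes blank is not known, and its part in this share was not tested. The largest rises were ANXA1, SPP1, DNM3 (136, 124 and 136 in U373neo and 886, 937 and 913 in U373cc3), LARP6 (112, 91.8 and 84.2 in U373neo and 556, 538 and 578 in U373cc3), ADGRL3 (86.1, 79.6 and 77.8 in U373neo and 436, 423 and 417 in U373cc3) and CREB5, a CREB-family factor (166, 179 and 180.1 in U373neo and 770.5, 877 and 756 in U373cc3), all with U373neo means below 302, the upper end of the dimmest of the 4 sets. The largest falls were DPY19L3, the bicarbonate transporter SLC4A4 (262, 159 and 184 in U373neo and 79.7, 94.7 and 85.4 in U373cc3, 2.28-fold lower), PAN3 (2.13-fold), LHX8, NEK3 (2.08-fold) and LNX2 (2.04-fold), of which PAN3, NEK3 and LNX2 lie on chromosome 13. Folds of such dim probes may be understated. With probes under an intensity of 200 left out 144 differed, and 167 did by the methods' t-test, the test the study's methods name, after Benjamini-Hochberg adjustment.

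The clones were not spread evenly over the serial ranges of the arrays. Range A held 4 arrays of U373cc3 and 5 of U373neo, range B 4 and 1, and range C 1 and 3. Over range A alone 4117 probes differed, and with the range as a term over single arrays 5516 did, against 4280. The largest changes kept their direction within the ranges, while their size varied. ANXA1 had log2 changes of 4.80, 4.56 and 5.26 in ranges A, B and C. FOS had log2 changes of 3.68, 3.63 and 3.96 in ranges A, B and C, EGR1 of 3.40, 3.67 and 3.88, SPP1 of 4.38, 4.26 and 4.31, NXN of -3.87, -4.06 and -3.40 and ALK of -3.00, -3.15 and -3.28. CEBPD had 2.49, 1.77 and 2.52, BLM 1.96, 2.68 and 2.20 and SCRN1 -2.31, -2.50 and -3.22.

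Whether the difference was also present in other samples of the clones was read from the UV arrays, where 4593 of 12343 probes differed between the clones (37.2%). Of 4018 probes that differed untreated and had values on both sets, 3457 had the same sign on the UV arrays, 2465 passed there with the same sign and 50 with the opposite sign. Of the 368 that differed by at least 2-fold untreated, 340 passed with the same sign and none with the opposite. All 9 U373neo arrays after UV were of range A and 6 of the 9 U373cc3 arrays were of range B, so range and clone cannot be fully told apart there. For GPM6B the log2 changes were 3.89 untreated and 3.70 after UV, for SDC2 3.80 and 3.76, for SPOCK1 3.44 and 3.69, for CDH19 2.99 and 2.96, for PALLD -2.48 and -2.48 and for C3orf18 -2.29 and -2.22. Of 11602 probes with values on both sets, the difference between the clones itself differed between the sets for 719 by limma (6.20%), and it was smaller in size after UV for 293 of them and larger for 426. For the 399 of these 719 that also differed untreated, the shift ran against the untreated sign for 312 and with it for 87. Of 30 immediate early genes, 14 passed that test, with a smaller difference after UV for 13 and a larger one for IER5. The log2 changes untreated and after UV were 3.73 and 2.21 for FOS, 2.93 and 1.64 for ARC, 3.00 and 2.06 for FOSB, 3.58 and 2.80 for EGR1 and 1.41 and 0.07 for ATF3 (adjusted p of the difference = 9.11e-05, 9.11e-05, 0.016, 0.00947 and 4.08e-04). The list was chosen with its untreated changes known, which favours smaller changes in the other set.

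**Figure D5:**
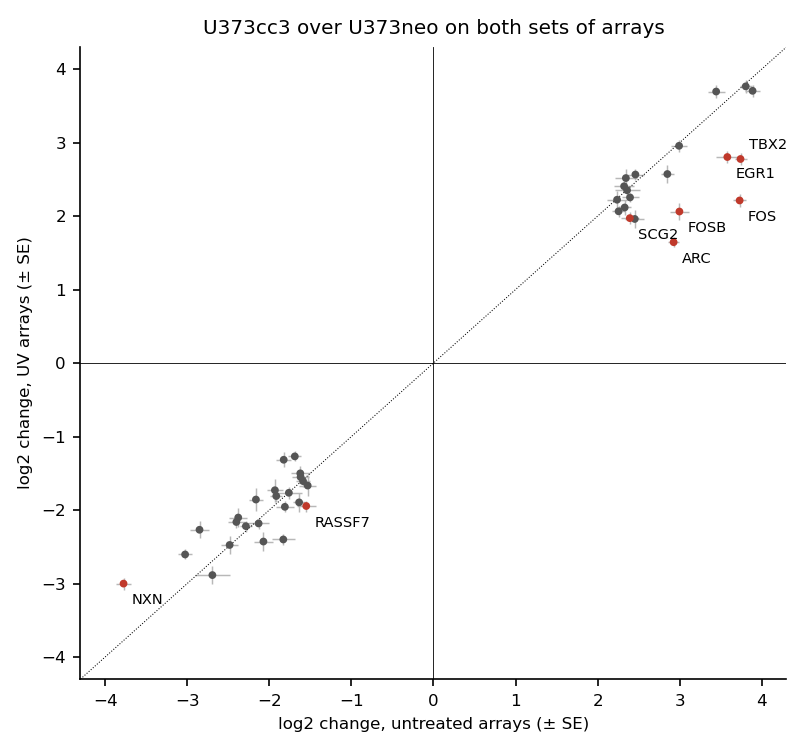
Points are the 44 of the 50 largest changes with values on both sets of arrays, with the log2 change, U373cc3 over U373neo, on the untreated arrays on the x axis and on the UV arrays on the y axis, error bars of 1 SE and a dotted line of equality. Red points are the 8 whose change differed between the sets at an adjusted p under 0.05, FOS, FOSB, ARC, EGR1, TBX2 and SCG2 among the rises and NXN and RASSF7 among the falls.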

How the data were processed

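Values were taken from the deposited table of probe intensities, 1 column per array. The authors hybridised each Cy5-labelled RNA to 3 arrays, scanned them, averaged the spots of a probe and quantile-normalised the intensities; why some probes are blank is not given in the sources used here. Of 30968 gene probes, 12300 had values on all untreated arrays, of which 9311 carried 1 gene symbol in the platform annotation and 2989 none. Symbols were updated through the RefSeq gene table (GRCh38.p14), where 9268 probes matched, and the probe with the highest mean stood for each of 8430 genes. Annotation by symbol does not show which transcripts a probe reads, and probe sequences were not used here.

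The log2 of each deposited intensity was taken, the 3 technical arrays were averaged, and 3 replicates per clone were compared with limma 3.58.1 (lmFit and eBayes) in R 4.3.3, with Benjamini-Hochberg adjustment over 12300 probes and a threshold of 0.05. Fold values are 2 raised to the log2 change. The fits were run on simulated data with 200 changed probes, as a check of the code only, and no result here rests on it. Single arrays were fitted with statmod 1.5.0. The difference between the untreated and UV contrasts was fitted on jointly quantile-normalised values over 11602 probes. Alternatives changed the normalisation, intensity filters, offset, technical averaging, serial range, variance model, samples, pairing and test.

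Named genes were the 25 largest rises and falls with replicates of the clones that did not overlap, HTATIP2, FOS, EGR1, DDB2, NXN and CDKN1A, up to 3 per direction in each gene list, and the 6 largest per direction among probes blank on the UV arrays. Further members of lists and runs were named after their values were seen. The members, lists and rules were chosen with earlier results of these data known.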

Additional observations from a re-analysis of the deposited data

Results flagged for a closer look

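Of 160 named genes with values on both sets of arrays, 25 differed between the clones by a different amount after UV than untreated, at an adjusted p under 0.05 by limma over 11602 probes, of which 719 (6.20%) passed. The values below are the change in the log2 difference between the clones, UV minus untreated, on jointly normalised intensities, and the difference between the clones was smaller in size after UV for 22 of the 25. The named genes were mostly chosen for large untreated differences, which favours a smaller difference in the other set, and over all 719 probes it was smaller after UV for 293 and larger for 426. These 719 include probes that did not differ untreated. Of the 399 that did, the shift ran against the untreated sign for 312 and with it for 87. Among immediate early and MAP kinase feedback genes the values were -1.70 for FOS, -1.24 for ARC, -1.03 for EGR1, -1.03 for DUSP1, -0.98 for DUSP10, -0.91 for DUSP2 and -0.89 for FOSB. BTG2, which was lower untreated (log2 change -0.43) and level after UV (0.01), had 0.46, and IER5 had -0.37, a larger difference after UV (-0.73) than untreated (-0.30).

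Other rises that were smaller after UV had values of -1.16 for TBX2, -0.66 for HMOX1, -0.60 for SCG2, -0.60 for TNFRSF21, -0.44 for NKX2-1 and -0.44 for IDI1. CDKN1A had -0.52, CDC6 -0.56, CENPQ -0.49 and CENPL -0.44, and all 4 were higher untreated and slightly below 0 after UV (-0.10, -0.17, -0.12 and -0.14). Falls that were smaller after UV had 0.60 for NXN, 0.49 for KPNA3 and 0.49 for CENPA, while GRB10 had 0.66 and turned from -0.50 untreated to 0.13 after UV. RASSF7 (-0.59) and MDK (-0.51) were lower by more after UV than untreated. Serial ranges of the arrays were not spread over the clones in the same way in both sets, and their part in these differences was not tested.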

How the results depend on the processing

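Deviations of same-numbered replicates of the clones correlated at 0.27, -0.10 and -0.02. Of the differently numbered pairs, U373cc3 replicate 3 with U373neo replicate 2 gave 0.25 and U373cc3 replicate 2 with U373neo replicate 3 gave 0.24. The remaining pairs lay between -0.21 and -0.11, and a pairing in another order than the numbers was not tested. With the replicate number as a block 4141 probes differed, 2072 higher and 2069 lower, of which 3805 were among the 4280 of the comparison without it. Omitting each replicate in turn gave 3098 to 4851 differing probes, 403 to 461 by at least 2-fold and 193 to 284 among those blank on the UV arrays. That last count, 262, became 144 with intensities under 200 left out and 167 by the methods' t-test after Benjamini-Hochberg adjustment. All other alternatives kept the counts within 1.5 times, from 3050 by the same adjusted t-test to 5516 over single arrays with the serial range as a term, and no probe called in both changed direction. Of 182 named genes, 29 lost their call in at least 1 alternative, CDKN1A among them with the replicate block (adjusted p = 0.065 by limma), and 180 kept their direction in all. The exceptions, IER5 (log2 change 0.0037) and TP73 (0.037), turned on arrays of serial range B alone, which held 4 arrays of U373cc3 and 1 of U373neo, and the cause was not tested. On range B alone and on range C alone, each with only 1 array of a clone, the size of many named changes also moved. Probes near background or near the scanner's limit have understated changes, and blank probes, HTATIP2 included, were not analysed here.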

Other observations

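Of 851 genes with several probes, 187 had at least 2 that differed between the untreated clones, and 178 of these moved 1 way. In the other 9, the probes passed in opposite directions: ALKBH7, CYTH2, DENND1A, PIK3R2, PLXNA2, TMEM248, TUBB3, UNKL and WDR91. DENND1A, a regulator of endocytic traffic, had log2 changes of 0.91 on its brighter probe and -0.36 on its dimmer one. TMEM248 had probes of similar brightness at -0.42 and 0.33, and UNKL had -0.72 and 0.33. Among the probes with no gene symbol, 964 of 2989 differed.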
